A study of Mus musculus with 16 samples.

Results

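Brown and white adipose tissue of mice labelled as adipose knockouts of the glucocorticoid receptor were compared on 8 of the 16 arrays of the series, 4 of brown and 4 of white tissue. The comparison took every probe that the scanner software called well above background on all 4 arrays of brown or all 4 arrays of white knockout tissue, which gave 28294 of 41174 probes. Of these, 25188 were above background on all 8 arrays, 2599 passed through the brown arrays alone and 507 through the white arrays alone. The 22019 probes with a gene symbol stood for 15051 genes, each represented by its brightest passing probe.

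The study asked what an adipose-specific deletion of the glucocorticoid receptor does to fat, in white and brown tissue of male mice. Both groups described here carried the knockout, labelled AdipoKO. The other 8 arrays held brown and white tissue of wild-type controls and enter here through the estimate of the spread and as the reference for the tissue difference. The fat depots dissected, the promoter that drove the deletion, the strain and the age are not given in the sources used here, and no treatment was named.

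The glucocorticoid receptor, encoded by Nr3c1, is a nuclear receptor that binds cortisol or corticosterone and regulates genes in adipocyte differentiation, lipid turnover and the thermogenic response. White fat stores triglyceride in large adipocytes and secretes adipokines such as leptin and adiponectin. Brown fat burns fuel for heat in mitochondria that are uncoupled by Ucp1, and its adipocytes descend from precursors related to those of skeletal muscle, which lies next to the brown depots between the shoulder blades.

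The arrays of a group did not all behave as separate samples. In each knockout tissue, arrays 2, 3 and 4 were closer to each other than the error the scanner software states for its spots, with a ratio of difference to error between 0.370 and 0.528 and at most 8 of 7728 bright probes over 2-fold apart. Array 1 stood apart from them, at ratios of 2.17 to 3.76 and 439 to 1744 such probes. Arrays 2 to 4 were therefore averaged and counted as 1 sample, called sample 2 below, with array 1 as sample 1, which left 2 brown and 2 white knockout samples and 9 samples in the series. Nothing in the labels says whether the averaged arrays shared an animal or a pool, so the p-values measure the spread between these samples, which may be technical. The number of samples limits the precision.

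A brown control sample also stood apart and matters because all 4 groups share 1 estimate of the spread. On its 2 arrays, brown control 2 and 3, Ucp1 lay at -0.75 and -0.75 on the log2 scale used throughout, the signal relative to the 75th percentile of the array. The other brown controls lay at 6.61 and 8.13. Cidea, a lipid droplet protein of brown adipocytes, was at 2.88 and 2.79 there against 7.59 and 8.71. Adiponectin (Adipoq) lay between 7.19 and 7.61 on all 4 brown control arrays. Calls between the knockout tissues that depend on this sample are given with and without it. Leaving it out was an alternative chosen after these readings were seen. Values of control mice below include it unless stated.

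Markers of other cells differed between the samples of each tissue. Lymphocyte markers averaged -0.06 in brown sample 1, 1.63 in brown sample 2, -1.68 in white sample 1 and 2.18 in white sample 2, over 31 members all above background. Markers of mesothelium, the cell layer that covers abdominal organs, averaged 1.59 in white sample 1 and -1.56 in white sample 2, and -1.78 and -2.68 in the brown samples. Skeletal muscle markers averaged 6.06 and 4.46 in brown samples 1 and 2 and -2.93 and -2.64 in the white samples. In bulk tissue, fewer cells of a type and less RNA per cell cannot be told apart.

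**Figure D1:**
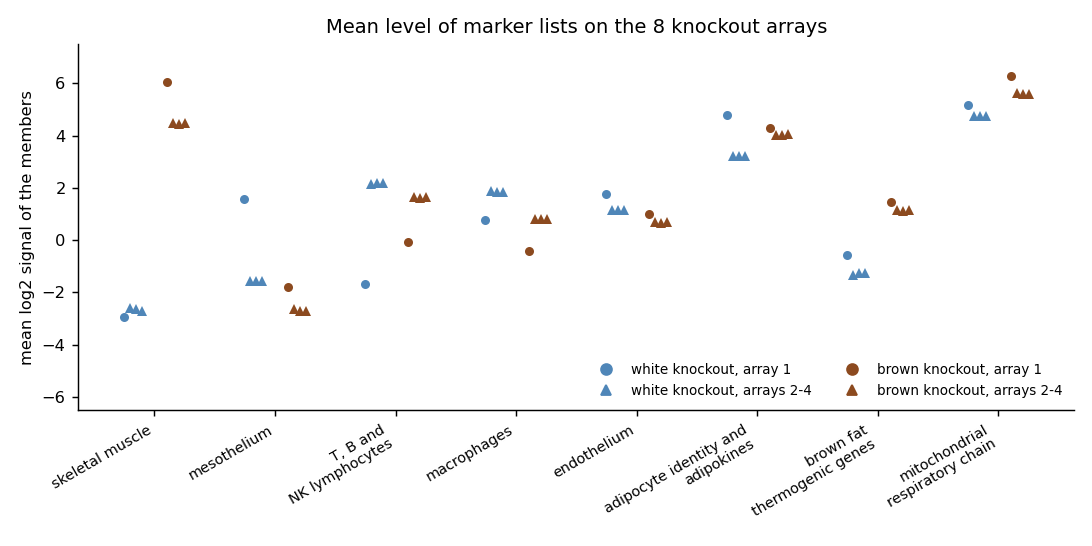
Mean log2 signal of the tested members of 8 gene lists, relative to the 75th percentile, on each of the 8 knockout arrays. Circles are array 1 and triangles arrays 2 to 4, white tissue in blue and brown tissue in brown. Muscle markers separate the tissues (4.46 and 6.06 against -2.93 and -2.64), while lymphocyte markers separate array 1 from arrays 2 to 4 within each tissue.

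Nr3c1 was lower on every knockout array than on every control array of its tissue, by the probe with the brightest signal. It read 1.57, 1.66, 1.83 and 1.80 on the brown knockout arrays and 1.58, 1.31, 1.30 and 1.42 on the white knockout arrays. Controls lay between 2.34 and 2.70 in brown and between 2.08 and 2.49 in white tissue. The knockout minus control difference was -0.85 ± 0.21 (SE) in brown and -0.89 ± 0.23 in white fat, and neither passed limma's test over all probes (adjusted p = 0.599 and 0.371). Between brown and white knockout tissue the difference was 0.21 ± 0.23 (adjusted p = 0.737). For the other 3 probes knockout minus control lay between -1.10 and -0.23 in white tissue and between -0.81 and -0.35 in brown. The smallest in white fat, -0.23 ± 0.28, came with overlapping arrays. Tissue differences of these probes ran from -0.37 to 0.61, and where the probes lie relative to the deleted part was not known.

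More genes passed as higher than as lower in brown knockout fat. Of 15051 genes, 234 passed an adjusted p of 0.05 (1.55%), 200 higher in brown (1.33%) and 34 lower (0.226%). The median difference was 6.21 over the higher and -2.10 over the lower genes, against -0.036 over all genes tested. The arrays of the tissues did not overlap for 231 of the 234, against 26.9% of all genes, 13.2% higher and 13.7% lower in brown. At an unadjusted p below 0.05 there were 1272 higher and 1059 lower genes. All 234 had the same sign in samples 1 and in samples 2, against 61.4% of all genes. With 2 samples per tissue, genes that pass nearly have to share their sign, so this is no separate support. Of the 234, 129 were above background on all 8 arrays, 99 passed through brown tissue alone and 6 through white tissue alone. A fit to the knockout arrays alone, with 2 residual degrees of freedom, called 0 probes (lowest adjusted p = 0.0754, 1936 at an unadjusted p below 0.05), so the calls draw on the spread of the control samples too. 

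The counts moved with single samples. Leaving out the brown control sample on arrays 2 and 3 gave 195 genes (1.3%), 180 higher (1.2%) and 15 lower (0.0997%). Without brown knockout array 1 there were 112 (0.744%), 107 higher (0.711%) and 5 lower (0.0332%), and without brown knockout sample 2 there were 320 (2.13%), 296 higher (1.97%) and 24 lower (0.159%). Without white knockout array 1 there were 354 (2.35%), 302 higher (2.01%) and 52 lower (0.345%). Without white knockout sample 2 there were 876 (5.82%), 287 higher (1.91%) and 589 lower (3.91%). Taking the replicate number as a block on the knockout samples gave 74 (0.492%), 73 higher (0.485%) and 1 lower (0.00664%). Genes higher in brown outnumbered lower ones in each of these except without white sample 2.

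Skeletal muscle genes made up the upper end of the comparison. All 42 members of a list of sarcomere, calcium handling and myogenic genes had higher means in brown fat, with a median difference of 8.42, and 36 passed. Without the brown control sample on arrays 2 and 3, 37 passed. Of the 42, 29 were above background on all 8 arrays, and the other 13 entered through brown tissue alone. The list made up 36 of the 200 genes higher in brown.

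Actn3, the alpha-actinin of fast fibres, read 6.63, 6.18, 6.13 and 6.19 on the brown and -3.42, -3.29, -3.38 and -3.47 on the white knockout arrays. All brown arrays lay far above all white arrays, and the 2 samples of each tissue were close together. The difference was 9.80 ± 0.41 (SE, adjusted p = 0.000602), or 892-fold.

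The fast troponin T gene Tnnt3 had the largest difference among genes above background on all 8 arrays, at 8.27, 7.35, 7.27 and 7.31 in brown and -4.50, -1.45, -1.52 and -1.61 in white fat. White sample 1 was the lowest. The difference was 10.80 ± 0.96 (adjusted p = 0.0025). The fast myosin heavy chains Myh4, Myh1 and Myh2, which set the contraction speed of a fibre, differed by 10.69 ± 1.43, 10.02 ± 0.68 and 9.70 ± 0.59 (adjusted p = 0.0154, 0.000879 and 0.00066). For Myh1 a second probe gave only 3.88.

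Other large differences spanned the sarcomere and its fuel supply. The oxygen store myoglobin (Mb) was 10.08 ± 0.77 higher, the Z-disc protein Myoz1 10.05 ± 0.60, the M-band protein Myom2 9.55 ± 1.13 and the giant thin-filament ruler nebulin (Neb) 8.82 ± 0.78. The fast regulatory light chain Mylpf was 9.33 ± 0.61 higher, the muscle phosphoglycerate mutase Pgam2 8.93 ± 0.55, and Cox6a2, a cytochrome c oxidase subunit of striated muscle and brown fat, 9.47 ± 0.94. Adjusted p for these 7 genes ran from 0.00066 to 0.00856. Each kept the same sign in both samples, and the sample 1 difference was the larger for all of them (11.53 against 8.62 for Mb).

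Some muscle genes were not well above background on any white array, so only a lower bound holds for them. The Z-disc protein myotilin (Myot) read 6.83, 4.65, 4.63 and 4.60 in brown fat and was at least 2816-fold higher (adjusted p = 0.000964). Csrp3, a LIM protein of striated muscle, was at least 1269-fold higher (adjusted p = 0.012), although it read 6.92 in sample 1 and 2.22 to 2.32 on the other brown arrays. The bounds were 541-fold for the slow myosin-binding protein C gene Mybpc1, 532-fold for Smtnl1, 410-fold for the ubiquitin ligase gene Trim63 and 397-fold for Fitm1, which binds triglyceride in muscle (adjusted p = 0.00168, 0.00171, 0.00066 and 0.000602). Myog, a myogenic transcription factor, was at least 38.3-fold higher (adjusted p = 0.00308), and Myod1, another, differed by 3.05 ± 0.50 (adjusted p = 0.0364). Pvalb, the calcium buffer of fast fibres, and the actin-binding Xirp2 were 11.98 ± 1.28 and 11.78 ± 0.93 higher (adjusted p = 0.00543 and 0.00168), with other Xirp2 probes down to 3.74. Pvalb was well above background on 3 white arrays, Xirp2 on 2 and Myod1 on 1. The sizes of these 3 differences therefore include readings not well above background. Desmin (Des) did not pass, at 1.87 ± 1.42 (adjusted p = 0.588). White sample 1 read 4.85 for it and white sample 2 between -0.22 and -0.09.

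Because the muscle genes moved together, their promoters were searched for CAGCTG, an E-box of the kind that myogenic bHLH factors bind. RefSeq promoters of the GRCm38.p6 build, 250 bases before to 50 after the start, matched 155 of the 200 genes higher in brown and 27 of the 34 lower. The motif stood in 34.8% of the promoters of higher genes, in 48.1% of 27 promoters of called muscle-list genes and in 18.5% of those of lower genes, against 15.6% of 11974 tested genes and 16.1% of all 27025 promoters. The core read by MEF2 factors, CTA and TAG with any 4 bases between them, stood in 11.6%, 11.1%, 0%, 3.27% and 3.70% of the same sets. Both motifs read the same on either strand. A match describes the letters of the window and is no evidence of binding. The promoters of Myh4 (chr11:67237562-67237861, plus strand), Mylpf (chr7:127211358-127211657, plus strand) and Mybpc1 (chr10:88605103-88605402, minus strand) are shown 5′ to 3′, with the E-box in capitals at -67, -51 and -87 from the start.
Myh4: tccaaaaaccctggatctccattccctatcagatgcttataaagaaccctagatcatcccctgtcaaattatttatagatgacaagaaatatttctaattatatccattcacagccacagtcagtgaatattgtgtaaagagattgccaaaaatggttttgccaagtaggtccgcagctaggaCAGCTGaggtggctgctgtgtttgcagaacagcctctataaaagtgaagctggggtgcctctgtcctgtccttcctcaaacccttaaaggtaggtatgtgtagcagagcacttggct
Mylpf: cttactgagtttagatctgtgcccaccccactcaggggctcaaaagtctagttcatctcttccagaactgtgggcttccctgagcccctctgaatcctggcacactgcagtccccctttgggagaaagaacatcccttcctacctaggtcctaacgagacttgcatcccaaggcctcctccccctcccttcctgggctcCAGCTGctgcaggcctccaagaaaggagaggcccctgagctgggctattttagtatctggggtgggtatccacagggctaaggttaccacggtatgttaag
Mybpc1: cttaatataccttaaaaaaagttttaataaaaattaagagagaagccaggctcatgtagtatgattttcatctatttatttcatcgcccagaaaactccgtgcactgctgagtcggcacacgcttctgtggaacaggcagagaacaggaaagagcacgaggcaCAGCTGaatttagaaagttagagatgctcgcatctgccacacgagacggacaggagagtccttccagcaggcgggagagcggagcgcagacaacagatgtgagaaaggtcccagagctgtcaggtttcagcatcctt

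Genes of heat production mostly had higher means in brown fat, and some passed. Of 30 tested members of a thermogenic list, 28 had higher means, with a median difference of 1.52. As higher 3 passed and as lower 0, where 1.33% of all genes passed as higher. At an unadjusted p below 0.05, 12 of the 30 were higher, against 1272 of all 15051 genes. In control mice the list's median was 1.67, and 5 passed. Without the brown control sample with low Ucp1 signal, 5 passed in the knockouts, among them Ucp1 and Cidea, whose low readings set that sample apart.

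Ucp1, the uncoupling protein that releases the proton gradient as heat, read 5.70, 5.92, 5.83 and 5.86 on the brown and -2.44, -0.84, -0.96 and -0.97 on the white knockout arrays. The groups did not overlap, and the 4 brown arrays lay within 0.22 of each other. The difference was 7.47 ± 2.53 (SE), or 177-fold, with adjusted p = 0.241 in the fit to all 9 samples and 0.00692 without the brown control sample on arrays 2 and 3. That sample was set apart by its low Ucp1 and Cidea readings. The smaller p without it follows from that choice and is no separate support.

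Cidea and Elovl3 depended on the same sample, and the same limit holds for them. Cidea read 6.98, 7.42, 7.46 and 7.33 in brown and 3.59, 3.61, 3.65 and 3.59 in white knockout fat, a difference of 3.59 ± 1.65 (adjusted p = 0.36 with and 0.017 without that sample). Elovl3, which elongates very long fatty acids in active brown fat, read -0.98, -0.75, -0.63 and -0.56 in brown tissue and was not well above background on any white array. It was at least 30.2-fold higher (adjusted p = 0.278 with and 0.00619 without).

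Cox7a1, a cytochrome c oxidase subunit of striated muscle and brown fat, passed in the fit to all samples. It read 7.84, 6.64, 6.63 and 6.69 in brown and 2.48, 1.17, 1.13 and 1.13 in white knockout fat, 5.44 ± 0.51 or 43.3-fold higher (adjusted p = 0.00315). Array 1 was the higher in both tissues, with a difference of 5.36 for samples 1 and 5.51 for samples 2. Cox8b, another such subunit, was 3.10 ± 0.50 higher (adjusted p = 0.0344, and 0.0669 without the brown control sample). Cpt1b, the muscle-type gate for fatty acids into mitochondria, was 5.50 ± 0.51 higher (adjusted p = 0.0029).

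These 3 genes are also expressed in muscle, whose part in their differences was not tested. In the brown control sample with low Ucp1 signal, Cox7a1 read 8.11 and 7.94, Cox8b 7.16 and 7.27 and Cpt1b 4.77 and 4.67, close to the other brown controls (7.67 and 8.06, 7.28 and 7.97, 4.34 and 4.71). Muscle markers averaged 6.22 in that sample, 6.22 in brown control 1 and 5.87 in brown control 4.

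The remaining thermogenic regulators did not pass. Dio2, which activates thyroid hormone, read 0.51, -0.58, -0.53 and -0.50 in brown and -0.58, -2.28, -2.41 and -2.07 in white fat (1.40 ± 0.78, adjusted p = 0.452). The coactivator Ppargc1a was at 1.64 ± 0.79 (adjusted p = 0.379), the brown-fat determinants Prdm16 at 0.33 ± 0.50 and Ebf2 at 0.28 ± 0.52, and the potassium channel Kcnk3 at 0.03 ± 0.89 (adjusted p = 0.812, 0.852 and 0.993). For Prdm16, Ebf2 and Kcnk3 white sample 1 lay above brown sample 1 and white sample 2 below brown sample 2. The zinc finger gene Zic1 and the homeodomain gene Lhx8, markers of classical brown fat, did not overlap between tissues (3.48 ± 1.65 and 2.06 ± 0.45, adjusted p = 0.374 and 0.0951).

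Ucp1 and Cox7a1 have different letters near their starts. In the RefSeq promoters of the same build, AGGTCA, the core hexamer of many nuclear receptor sites, was searched on both strands and stood in 17.4% of 155 promoters of genes higher in brown, against 12.9% of tested genes. It occurs at -14 in the Ucp1 promoter (chr8:83290098-83290397, plus strand), in capitals, and neither it nor the E-box or MEF2 core occurs in that of Cox7a1 (chr7:30183921-30184220, plus strand).
Ucp1: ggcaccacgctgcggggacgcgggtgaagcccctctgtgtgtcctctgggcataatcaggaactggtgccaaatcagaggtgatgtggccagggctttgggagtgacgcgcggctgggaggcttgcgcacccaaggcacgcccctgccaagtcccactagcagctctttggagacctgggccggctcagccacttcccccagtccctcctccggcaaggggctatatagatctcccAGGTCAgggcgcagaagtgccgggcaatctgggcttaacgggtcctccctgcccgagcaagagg
Cox7a1: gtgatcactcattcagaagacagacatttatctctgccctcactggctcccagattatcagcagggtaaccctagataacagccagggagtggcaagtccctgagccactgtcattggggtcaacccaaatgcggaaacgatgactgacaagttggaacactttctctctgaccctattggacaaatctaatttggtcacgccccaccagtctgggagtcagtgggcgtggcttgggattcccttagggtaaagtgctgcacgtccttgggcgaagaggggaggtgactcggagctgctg

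**Figure D2:**
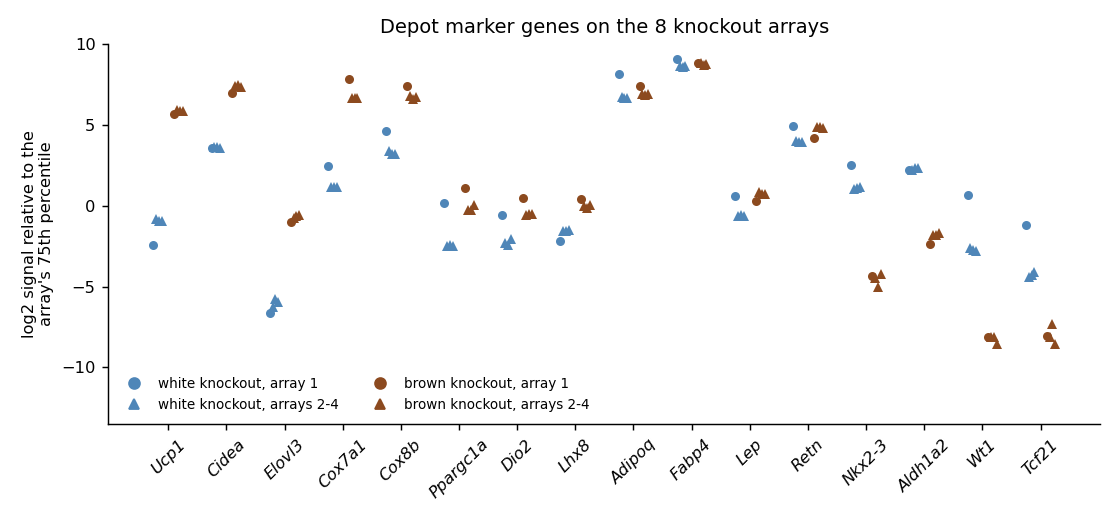
Log2 signal relative to the 75th percentile for 16 depot marker genes on the 8 knockout arrays, circles for array 1 and triangles for arrays 2 to 4, white tissue in blue and brown tissue in brown. Ucp1 lies between 5.70 and 5.92 in brown and between -2.44 and -0.84 in white fat, whereas Adipoq and Fabp4 overlap between tissues, and Nkx2-3, Aldh1a2, Wt1 and Tcf21 are the lower ones in brown.

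Mitochondrial genes outside this list differed by less than the muscle genes, mostly in the same direction. Of 76 respiratory chain subunits, 75 had higher means in brown fat, with a median of 1.01 (1.12 for samples 1 and 0.849 for samples 2), and 66 did not overlap between tissues, where 13.2% of all genes were higher without overlap. None passed limma over all probes, with 57 at an unadjusted p below 0.05, against 2331 of all 15051 genes. In controls the median was 1.16 and 12 passed. The electron carrier cytochrome c (Cycs) was at 1.73 ± 0.35 and the ATP synthase subunit Atp5a1 at 1.22 ± 0.26 (adjusted p = 0.0722 and 0.0865). The tricarboxylic acid cycle list was similar, with 16 of 17 means higher, a median of 1.39 and 0 passing, 14 of them at an unadjusted p below 0.05. The dehydrogenase subunits Idh3a and Idh3b were at 2.12 ± 0.44 and 2.07 ± 0.45 (adjusted p = 0.0776 and 0.0907).

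Fatty acid oxidation genes had a median of 1.06, with 25 of 29 means higher and 1 passing. That gene was Fabp3, the heart-type fatty acid carrier, at 7.38, 4.38, 4.31 and 4.33 in brown and 0.18, -2.47, -2.35 and -2.42 in white fat (6.97 ± 1.07, adjusted p = 0.0279, and 0.0626 without the brown control sample). Of 8 creatine cycle genes, the muscle creatine kinases Ckmt2 (12.70 ± 1.20, adjusted p = 0.00314) and Ckm (7.64 ± 1.13, adjusted p = 0.0242) were higher. Ckmt2 was not well above background on every white array, so the size of its difference includes readings not well above background. Ckm missed the threshold without the brown control sample (adjusted p = 0.0518). The brain-type kinase Ckb went the other way without passing, at -2.66 ± 0.77 (adjusted p = 0.185). Hk2, which traps glucose in muscle and brown fat, was 1.65 ± 0.26 higher (adjusted p = 0.0339, and 0.0637 without the brown control sample) and was the only 1 of 22 insulin and glucose uptake genes to pass, beside a list median of 0.058. Branched-chain amino acid breakdown genes had a median of 0.53 (0.12 for samples 1 and 0.94 for samples 2). Of 20, 0 passed or were at an unadjusted p below 0.05. The regulatory kinase Bckdk and the mutase Mmut were at 0.61 ± 0.32 and 0.69 ± 0.45 (adjusted p = 0.418 and 0.527).

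Genes lower in brown knockout fat were fewer and included regulators of position and of retinoic acid. Nkx2-3, a homeobox factor of visceral mesoderm, read -4.34, -4.48, -5.05 and -4.21 in brown and 2.53, 1.01, 1.10 and 1.19 in white fat. Every white array was above every brown array, by -6.27 ± 0.52 (adjusted p = 0.00193), or 77.4-fold. Aldh1a2, which makes retinoic acid, read -2.39, -1.80, -1.83 and -1.71 in brown and 2.20, 2.23, 2.36 and 2.32 in white fat, -4.34 ± 0.33 (adjusted p = 0.00141), or 20.2-fold. The white samples differed little for Aldh1a2 although their other mesothelial markers differed. It was the only 1 of 18 retinoid genes to pass, beside a list median of -0.21.

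Further genes passed as lower. The fatty acid carrier Fabp7 was at -3.49 ± 0.46, the chemokine scavenger Ackr4 at -3.16 ± 0.52, the integrin Itga9 at -2.77 ± 0.34 and lactase (Lct) at -2.56 ± 0.38 (adjusted p = 0.0138, 0.0377, 0.0109 and 0.0239). The forkhead factor Foxc2, the reticulon Rtn1, the lymphatic endothelial protein Mmrn1 and the secreted Dkk3 lay between -2.55 and -2.53 (adjusted p = 0.0139, 0.0195, 0.0255 and 0.0202). Mogat2, which builds triglyceride from monoacylglycerol, was at -2.33 ± 0.27 and the prostaglandin synthase Ptgs1 at -2.31 ± 0.25 (adjusted p = 0.00808 and 0.00567). Adra1b, an alpha-adrenergic receptor, was at -2.10 ± 0.26 (adjusted p = 0.0114). Adgrb3, an adhesion receptor not well above background on any brown array, was at least 5.65-fold lower (adjusted p = 0.00616). Without the brown control sample on arrays 2 and 3, Ackr4, Lct and Mmrn1 no longer passed (adjusted p = 0.0518, 0.0529 and 0.059).

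Mesothelial genes had mostly lower means in brown fat, unevenly between the samples, and few passed. Of 16 tested, 12 had lower means, with a median of -2.63, at -4.23 for samples 1 and -1.36 for samples 2, and 2 passed, Wt1 and Aldh1a2. On all brown arrays 3 members were not well above background. Wt1, a zinc finger factor of mesothelium and visceral fat, read 0.64, -2.61, -2.73 and -2.77 in white fat and was not well above background on any brown array. It was at least 35.2-fold lower in brown (adjusted p = 0.0255, and 0.0575 without the brown control sample). The surface glycoproteins Msln (-6.36 ± 1.15) and Upk3b (at least 52.7-fold lower) missed the threshold (adjusted p = 0.0517 and 0.052). Upk3b read 1.74 in white sample 1 and -2.70 to -2.59 in white sample 2. The keratins of the list were the opposite, with Krt18 at 4.42 ± 1.27 and Krt8 at 4.14 ± 1.30 (adjusted p = 0.18 and 0.215). Without white sample 2, 10 members passed as lower, where 3.91% of all genes did. The part of mesothelium in the other lower genes was not tested.

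Developmental transcription factors changed in both directions. Of 29 tested members of a list of depot-patterning factors, 8 were higher and 3 lower in brown knockout fat (1.33% and 0.226% over all genes), and 11 and 5 in controls (3.82% and 1.02%). Of the 29, 2 were not well above background on any brown array and 4 on any white array. The list's median of 0.62 became 0.36 with those at their bounds, beside -0.036 over all genes. With only the members above background on all 8 arrays, 16 of the 29, it was -0.10.

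Tbx15, a T-box factor of brown and muscle precursors, read 1.85, 0.83, 0.85 and 0.80 in brown fat and was not well above background on any white array. It was at least 133-fold higher (adjusted p = 0.000602), although its other probes gave differences down to 2.19.

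Further patterning factors passed with smaller values. Irx1 and Irx2, neighbouring Iroquois genes, were 5.48 ± 0.85 and 6.02 ± 1.02 higher (adjusted p = 0.0433 and 0.0417). The T-box gene Tbx5 was at least 6.22-fold higher, Tbx18 2.35 ± 0.22 and the coactivator gene Eya1 2.43 ± 0.43 (adjusted p = 0.00505, 0.00311 and 0.048). Irx2 was well above background on 1 white array and Tbx18 on 2, so their differences include readings not well above background. On the lower side stood Wt1, Nkx2-3 and Foxc2. Tcf21, a bHLH factor of white fat precursors, was at least 10.9-fold lower and missed the threshold (adjusted p = 0.0533). Without the brown control sample, 5 members passed as higher and 2 as lower, and Irx1, Irx2 and Eya1 lost their calls (adjusted p = 0.0838, 0.0761 and 0.0518).

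**Figure D3:**
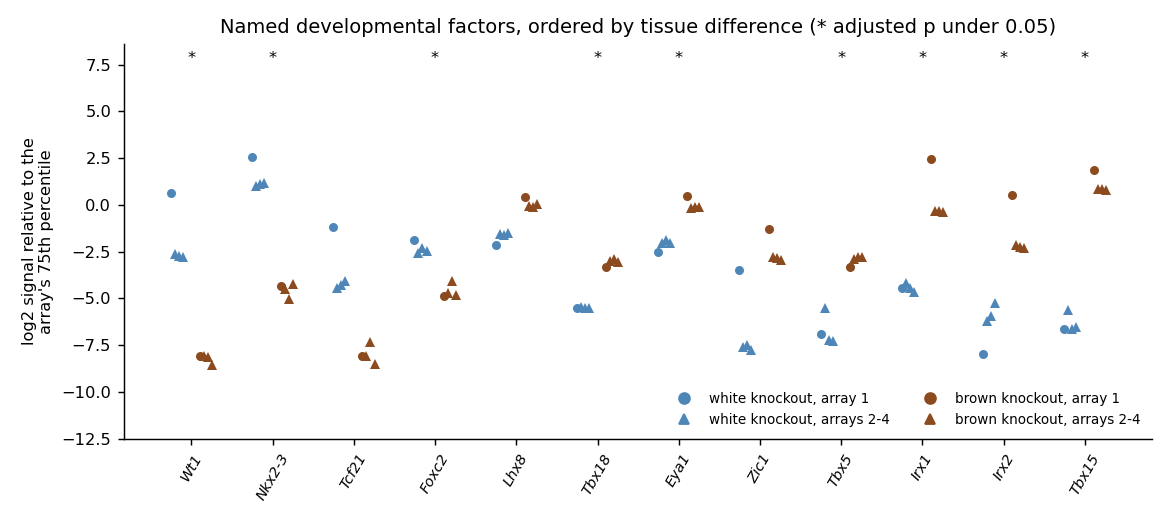
Log2 signal relative to the 75th percentile for the 12 developmental transcription factors named in the text on the 8 knockout arrays, ordered by tissue difference from Wt1 (-7.14) to Tbx15 (7.79). Circles are array 1, triangles arrays 2 to 4, blue white tissue and brown brown tissue, and an asterisk marks the 9 of them that passed; readings near -8 are not above background.

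Hox genes, which record position along the body axis, did not pass in any of 24 members tested of 36 on the array. Of these, 6 were at an unadjusted p below 0.05, 2 higher and 4 lower, against 1272 higher and 1059 lower of all 15051 genes. Hoxb4 and Hoxb6 were lower on every brown array than on every white array (-1.54 ± 0.31 and -2.04 ± 0.48, adjusted p = 0.0681 and 0.116). Hoxc8 and Hoxc9, markers of caudal white depots, read -2.22 and -0.22 in white sample 1 and down to -6.35 and -2.58 in white sample 2, and differed from brown by -0.68 ± 1.54 and -1.38 ± 1.44 (adjusted p = 0.884 and 0.713). Hoxa5 was at 0.25 ± 0.69 (adjusted p = 0.911). The median of the list was -0.43 and changed sign when the 16 arrays were taken separately (0.082).

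The general adipocyte program had no calls and was split by sample. Of 26 identity and adipokine genes none passed or was at an unadjusted p below 0.05, 17 had higher means and the median was 0.076, at -0.57 for samples 1 and 0.86 for samples 2. Adipoq read 7.41, 6.88, 6.82 and 6.94 in brown and 8.17, 6.73, 6.69 and 6.66 in white fat (-0.29 ± 0.46, adjusted p = 0.826). The fatty acid carrier Fabp4 was nearly level across all 8 arrays, from 8.57 to 9.07 (-0.06 ± 0.24, adjusted p = 0.944), and the adipocyte regulator Pparg was at 0.47 ± 0.68 (adjusted p = 0.801).

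Several genes that usually mark white fat did not pass. Leptin (Lep), the satiety hormone, read 0.27, 0.85, 0.75 and 0.74 in brown and 0.58, -0.67, -0.59 and -0.63 in white fat, 0.55 ± 0.43 (adjusted p = 0.6). Resistin (Retn) was at 0.08 ± 0.38, angiotensinogen (Agt) at 0.47 ± 0.77, and the imprinted genes Mest and Nnat at 0.04 ± 0.60 and 0.34 ± 0.89 (adjusted p = 0.951, 0.83, 0.987 and 0.905). In each of these 5 the white array 1 reading was above the brown array 1 reading, and arrays 2 to 4 were the other way round. The glucose transporter Slc2a4 was at 0.97 ± 0.44 and the inter-alpha-trypsin inhibitor Itih5 at -0.68 ± 0.35 (adjusted p = 0.35 and 0.412).

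Lipid synthesis lists had few calls. Fatty acid synthesis genes had a median of -0.065, with 0 of 21 passing or at an unadjusted p below 0.05; Acacb, the mitochondrial acetyl-CoA carboxylase, was at 1.16 ± 0.55 and the desaturase Scd3 at -0.64 ± 0.31 (adjusted p = 0.377 and 0.387). Triglyceride synthesis and uptake genes had a median of -0.11, with Mogat2 the only 1 of 16 past the threshold. Lipolysis and lipid droplet genes had a median of 0.23, with Fitm1 the only 1 of 14. Cholesterol synthesis genes were lower in mean in 22 of 24, with a median of -0.40 (-0.61 for samples 1 and -0.32 for samples 2). Of the 24, 0 passed and 4 were at an unadjusted p below 0.05, against 2331 of all 15051 genes.

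Genes that handle or answer glucocorticoids had 1 call between the knockout tissues. Of 36 glucocorticoid-induced genes 0 passed and 8 were at an unadjusted p below 0.05, against 2331 of all 15051 genes. Means were higher in brown for 22 of the 36, with a median of 0.24. Fkbp5, a chaperone of steroid receptors, read -0.38, 1.34, 1.46 and 1.30 in brown and -0.38, 2.22, 2.27 and 2.20 in white fat (-0.43 ± 1.03, adjusted p = 0.891), so array 1 was the low reading in both tissues. The kinase Sgk1 and the phosphatase Dusp1 lay higher on every brown array (1.36 ± 0.34 and 0.93 ± 0.24, adjusted p = 0.138 and 0.142). Hsd11b1, which regenerates active glucocorticoid, was at 0.77 ± 0.50, and the mineralocorticoid receptor Nr3c2, which also binds corticosterone, at -0.53 ± 0.24 (adjusted p = 0.52 and 0.353). Among 18 receptors, cofactors and steroid enzymes, with a median of -0.12, Akr1c18, which inactivates progesterone, was the only 1 to pass, at 0.14, -2.06, -2.27 and -2.13 in brown and -4.83, -5.24, -6.33 and -5.33 in white fat (4.23 ± 0.66, adjusted p = 0.031, and 0.0683 without the brown control sample).

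Clock genes had 14 of 18 means higher in brown and a median of 0.70. Of the 18, 0 passed and 3 were at an unadjusted p below 0.05, against 2331 of all 15051 genes. The repressor Bhlhe40 was at 1.14 ± 0.37 (adjusted p = 0.227). The 27 adrenergic and cyclic AMP genes had a median of 0.0033, with Adra1b the only 1 to pass.

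**Figure D4:**
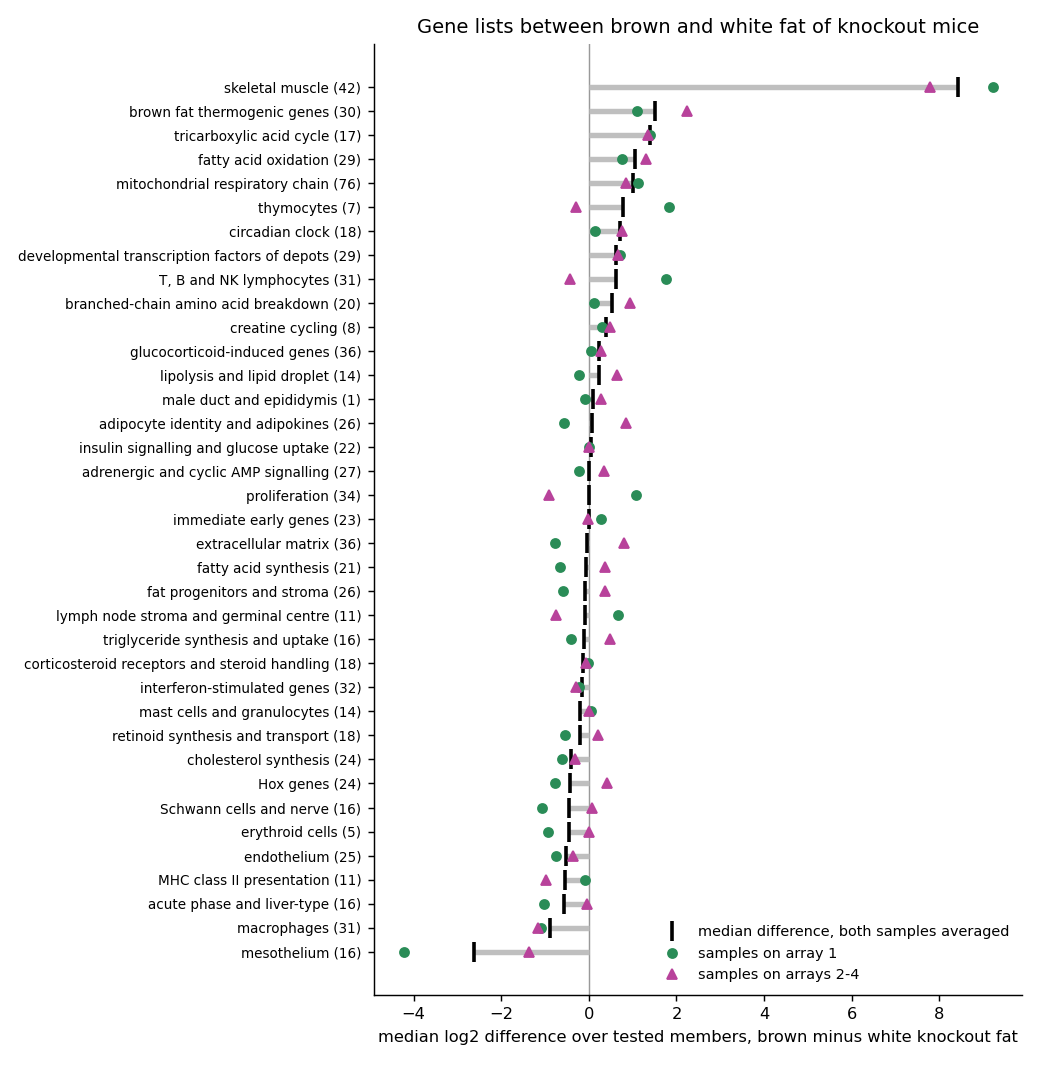
Median log2 difference, brown minus white knockout fat, of 37 gene lists with the number of tested members in brackets. The bar and vertical tick are the difference with both samples averaged, the circle samples on array 1 and the triangle samples on arrays 2 to 4. Skeletal muscle is at 8.42 and mesothelium at -2.63, and circle and triangle lie on opposite sides of 0 for the lymphocyte list (1.76 and -0.44).

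Immune and vascular lists had few or no calls, where 0.226% of all genes passed as lower. Of 31 macrophage genes 27 had lower means in brown, with a median of -0.89 (-1.10 for samples 1 and -1.15 for samples 2). Of the 31, 0 passed and 10 were lower at an unadjusted p below 0.05, against 1059 of all 15051 genes. Without overlap between tissues 12 were lower, against 13.7% of all genes. The macrophage surface receptor Adgre1 and the hyaluronan receptor Lyve1 were lower on every brown array (-1.39 ± 0.35 and -2.11 ± 0.48, adjusted p = 0.139 and 0.106). Endothelial genes had a median of -0.52, with 20 of 25 means lower, 0 passing and 10 lower at an unadjusted p below 0.05. Of the 25, 11 were lower without overlap. Flt4, the lymphatic growth factor receptor, and endoglin (Eng) were at -1.82 ± 0.33 and -1.26 ± 0.24 (adjusted p = 0.0547 and 0.0594).

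Lymphocyte genes differed more between samples than between tissues. Of 31 tested, 0 passed and 1 was at an unadjusted p below 0.05. The median was 0.61, at 1.76 for samples 1 and -0.44 for samples 2. The T cell receptor subunit Cd3e read -1.91, -1.17, -1.66 and -1.61 in brown and -4.07, -1.28, -1.35 and -1.31 in white fat (adjusted p = 0.63). Jchain, which links secreted antibodies, was lower on every brown array (-2.07 ± 0.74, adjusted p = 0.259). With the mean lymphocyte level as a covariate, an alternative chosen after the data were seen, 622 genes passed (4.13%), 447 genes were higher and 175 lower (2.97% and 1.16%), the muscle list had 38 higher and the respiratory chain 29.

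In control mice the tissue difference ran the same way for most genes. Controls had 729 of 15051 genes past the threshold (4.84%), 575 higher (3.82%) and 154 lower (1.02%) in brown, with 3 brown and 2 white samples. Of the 234 knockout calls, 216 were also called in controls, all in the same direction, which is 92.3% of the knockout calls and 29.6% of the control calls. Across all 15051 genes, which are not independent replicates, the differences of the genotypes correlated with Pearson's r = 0.868 and Spearman's rho = 0.667, and 75.6% had the same sign. Without the brown control sample on arrays 2 and 3, Pearson's r was 0.869. The counts of control calls and of shared calls are given only with that sample. The comparisons of the genotypes share no array, but both use the pooled spread.

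Shared calls higher in brown were mostly smaller in the knockout, and shared lower calls were not. Of 193 shared higher calls, 167 had a smaller difference in knockout than in control mice, against 9 of 23 shared lower calls. The median over the 200 higher genes was 6.21 against 7.13 in controls, and over the 34 lower genes -2.10 against -1.35. The genes were chosen for passing in knockouts. The muscle list was at 8.42 against 10.24, with muscle markers at 4.46 and 6.06 in the brown knockout and 5.87 to 6.22 in the brown control samples. In white tissue these markers were at -2.93 and -2.64 in the knockout and -3.70 and -3.29 in the control samples. For Ckm white knockout sample 1 read 0.55 and white knockout arrays 2 to 4 between -3.61 and -3.06, and its difference was 7.64 against 11.81.

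No gene's tissue difference was shown to differ between genotypes. The limma contrast of the differences called 0 of 28294 probes, with 830 at an unadjusted p below 0.05 and a lowest adjusted p of 0.99994. Without the brown control sample on arrays 2 and 3 it also called 0. The 16-array fit called 1477, and leaving out white knockout sample 2 gave 55. The smallest p belonged to the kinase Camk2a, which was 2.94 ± 0.39 higher in brown knockout fat (adjusted p = 0.0139) and 6.18 higher in brown control fat. It read 0.83 to 1.34 on brown knockout and -1.94 to -1.57 on white knockout arrays. Among the next 4, Adgrb3 differed by -4.39 in knockouts and -0.79 in controls, Lingo2 by -2.78 and 1.35, Cdh24 by -1.49 and 1.39, and Pdzk1ip1 by -0.10 and -1.71. Of genes called in knockouts and not in controls, Lct was at -0.31, Itga9 at -1.33, Rtn1 at -1.27, Dkk3 at -1.16 and Akr1c18 at 2.16 in controls (adjusted p = 0.63, 0.0652, 0.0853, 0.104 and 0.103).

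**Figure D5:**
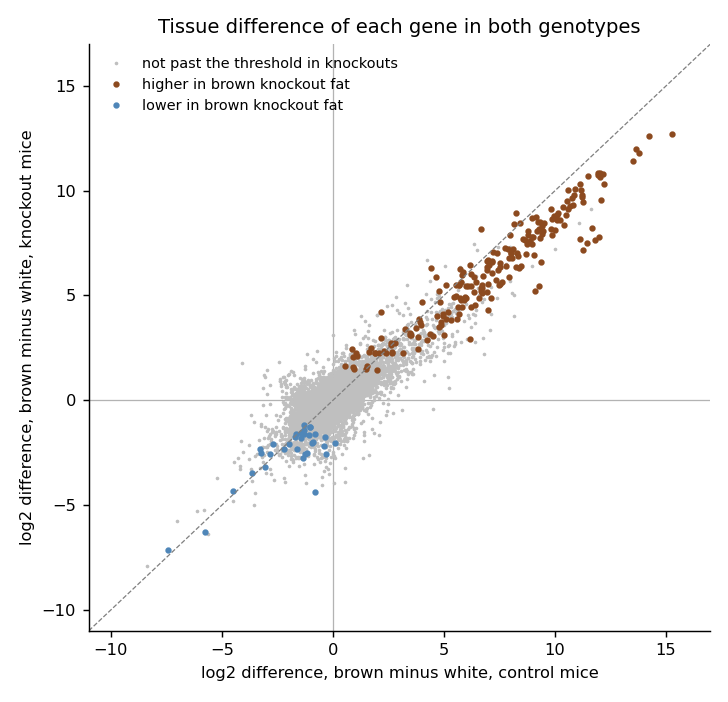
Log2 difference, brown minus white, of 15051 genes in control mice (horizontal) and knockout mice (vertical), with the dashed line at equality. The 200 genes higher in brown knockout fat are in brown and the 34 lower in blue; most of the higher ones lie below the line, and r over all genes is 0.868.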

How the data were processed

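Total RNA of male mouse fat was labelled with Cy3 and hybridised to 1-colour Agilent arrays, per the labels. Per the file headers, images were read with Feature Extraction 12.0.0.7, and the authors deposited spot intensity values that are background-subtracted and not scaled between arrays; the array design names mm9, and no coordinates from it are used. Of 43379 non-control spots per array, 67.3% to 77.0% were well above background and 0 were saturated.

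Outlier spots were left out (89 passing probes lacked a value on at least 1 array), spots of a probe were averaged, and log2 intensity was taken relative to its 75th percentile on that array. Accessions matched RefSeq (GRCm38.p6) for 28223 of 41174 probes and 19096 symbols, and 12951 probes stayed unnamed, of which 6275 were members and 70 were called. Arrays whose difference, divided by the stated spot error, had a median absolute deviation below 1 were averaged, giving 9 samples. limma 3.58.1 (R 4.3.3; tables with Python 3.11.15) fitted a mean for each of 4 groups with 1 pooled spread (5 residual degrees of freedom), and p-values were adjusted by Benjamini-Hochberg over all 28294 probes, threshold 0.05; 386 probes (1.36%) passed. A gene dim on all arrays of a tissue has only a bound there, the bright mean over whichever is greater, the gene's dim reading or the faintest reading called well above background.

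The members and the 37 lists were chosen with earlier results of these data known. Named were depot and glucocorticoid genes fixed by name, the 12 largest differences each way above background on all 8 arrays, the 6 largest bounds each way, up to 4 called members of each list or the 2 with the smallest p, and the 5 smallest p for genotype by tissue. Myod1, Myog, Des, Msln, Upk3b, Krt8, Krt18, Ckb, Irx1, Irx2, Tbx5, Tbx18 and Eya1 were added after their values were seen. The files lack a mean signal column, so the normexp alternative used median signals with an offset of 50. The fit was tested on simulated data of 28294 probes. It called 2 of 100 probes changed by 1, 45 of 100 changed by 2 and 86 of 100 changed by 4 on the log2 scale. Of 27994 unchanged probes it called 9. The simulated noise of a probe had the same spread in every group, so this cannot show how the fit behaves where groups differ in spread. Some named genes are not reported here.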

Additional observations from a re-analysis of the deposited data

How the results depend on the processing

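Of 386 probes past the threshold, 319 were higher and 67 lower in brown. Counts within 1.5 times came from quantile and median scaling, normexp (28 lower), the wider and absent background filters and a trended robust spread. No direction of a called gene reversed. No slide held both knockout tissues. With no scaling, which moved the median over genes to 0.25, the count was 604 (559 higher), and medians of lists near 0 changed sign with them. Probes above background on all 8 arrays gave 135 (106 higher, 29 lower), and the knockout arrays alone 0 (0 higher, 0 lower), with 1936 at an unadjusted p below 0.05. Separate arrays gave 7336 (3570 and 3766), with 1477 for genotype by tissue and Nr3c1 at -0.95 in white and -0.85 in brown fat. On separate arrays, slide as a random block gave 7373 (3585 and 3788), 1538, -0.95 and -0.85. Slide as a fixed block, also on separate arrays and so to be set beside 7336, gave 426 (355 and 71) and 0 for genotype by tissue. It put Nr3c1 at -0.97 in white fat (adjusted p = 0.042). Some list medians changed sign with it, among them lymphocytes at -0.15 and thymocytes at -0.49. Leaving out 1 array gave 172 to 563 (163 to 479 higher, 9 to 84 lower), 0 to 0 for genotype by tissue, and Nr3c1 at -1.01 to -0.83 in white and -0.94 to -0.76 in brown fat. Without white knockout sample 2 the counts were 1397 (492 and 905) and 55, and without sample 2 of both tissues 1235 (660 and 575). Alternatives chosen after the data were seen gave 30 lower probes without the brown control sample on arrays 2 and 3, 231 (211 and 20) with white controls as 1 sample, and 1095 (747 and 348) with lymphocyte level as a covariate. Of 48 called named genes, 28 to 48 stayed called when 1 array was left out, and the lowest count came without brown knockout array 1. Some list medians changed sign when 1 array was left out. Without white knockout array 1, the lymphocyte list was at -1.47, thymocytes at -0.66, Schwann cells and nerve at 0.34 and erythroid cells at 0.38. Without brown knockout array 1, the MHC class II list was at 0.38. The cause of these changes was not tested.

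Whether replicate numbers pair the samples could not be settled: same-number correlations were 0.59, 0.45, 0.48 and 0.32 in knockouts, where arrays 2 to 4 are 1 sample and only 2 pairs are distinct, and -0.14, 0.075, 0.065 and 0.23 in controls. The replicate block gave 7275 probes (3519 and 3756), 952 for genotype by tissue and Nr3c1 at -0.95 and -0.85 on separate arrays, and 113 (112 and 1) on knockout samples alone.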

Other observations

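Stromal and other lists of the knockout tissues had little in common. Extracellular matrix genes had a median of -0.039 (-0.78 for samples 1 and 0.79 for samples 2). Of 36, 0 passed and 6 were at an unadjusted p below 0.05, against 2331 of all 15051 genes. The protease gene Mmp3 was at 1.36 ± 0.29 and the fibril-associated collagen gene Col12a1 at -1.68 ± 0.39 (adjusted p = 0.0823 and 0.116). Fat progenitor genes had a median of -0.091, with the matrix gene Vit at -2.62 ± 0.70 and the proteoglycan gene Dcn at -1.05 ± 0.32 (adjusted p = 0.154 and 0.204). Schwann cell and nerve genes were at -0.46 (-1.06 for samples 1 and 0.077 for samples 2). Neuronal tubulin (Tubb3) was at -1.92 ± 0.57 and Dbh, which makes noradrenaline, at -1.26 ± 0.49 (adjusted p = 0.193 and 0.287). Erythroid genes were at -0.46 (-0.93 for samples 1 and 0.011 for samples 2). The transferrin receptor Tfrc was at 1.07 ± 0.36 and the heme enzyme Alas2 at -0.84 ± 0.65 (adjusted p = 0.239 and 0.593). Mast cell and granulocyte genes were at -0.20, and the IgE receptor chain Fcer1a was higher in brown (-1.63, -2.17, -2.13 and -2.29 against -4.46, -3.23, -3.26 and -5.09; 2.24 ± 0.30, adjusted p = 0.0149).

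Acute phase and liver-type genes had a median of -0.57, with 0 of 16 passing and 7 at an unadjusted p below 0.05, against 2331 of all 15051 genes. Fibrinogen gamma (Fgg) read 0.08, -1.90, -1.75 and -1.76 in brown fat and was at least 29.2-fold above white fat (adjusted p = 0.118), whereas complement C3 was at -1.03 ± 0.31 (adjusted p = 0.196). Interferon-stimulated genes were at -0.15, with the RNA sensor Ddx58 at -1.05 ± 0.54 and the GTPase Gbp5 at -1.27 ± 0.81 (adjusted p = 0.409 and 0.509). Immediate early genes were at -0.0013, although the nuclear receptor Nr4a1 and Fos lay higher on every brown array (1.65 ± 0.31 and 1.93 ± 0.47, adjusted p = 0.056 and 0.123). Genes of antigen presentation on MHC class II were at -0.55, with H2-Ab1 at -0.79 ± 0.76 and H2-DMb1 at -0.81 ± 0.98 (adjusted p = 0.684 and 0.757). Proliferation genes were at 0.0021 (1.09 for samples 1 and -0.91 for samples 2), with E2f1 and Ccne2, which start DNA replication, at -0.89 ± 0.39 and 0.77 ± 0.43 (adjusted p = 0.336 and 0.452). Lymph node stroma genes were at -0.096, with the vascular addressin Madcam1 at -1.05 ± 1.16 and the repressor Bcl6 at 0.56 ± 0.47 (adjusted p = 0.73 and 0.634). Thymocyte genes were at 0.77 (1.84 for samples 1 and -0.29 for samples 2), with Arpp21 at 4.12 ± 1.12 and Themis at 0.89 ± 0.87 (adjusted p = 0.162 and 0.691). Of 10 epididymis and male duct genes on the arrays 1, Rnase10, was tested, at 0.09 ± 0.30 (adjusted p = 0.93).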
